A study of Mus musculus with 4 samples.

Results

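The genes described here are 9 genes of bone morphogenetic protein (BMP) signalling in mouse embryonic stem (ES) cells. They are the target genes Id1, Id2 and Id3, the inhibitory Smad genes Smad6 and Smad7, the receptor-activated Smad genes Smad1 and Smad5, the ligand gene Bmp4 and the receptor gene Bmpr1a. They were taken by symbol from a table of 54146 mouse genes, and all 9 passed the filter on low counts. Membership was decided by name, with no threshold on any value, but with earlier results of these data known. The study measured nascent RNA by TT-seq, in which newly made RNA is tagged with 4-thiouridine, purified and sequenced. It compared ES cells of genotype Supt3 WT with ES cells of genotype Supt3 KO, both grown in serum with LIF, with 2 libraries of each. RNA from 4-thiouridine-treated fission yeast, S. pombe, was the spike-in for both genotypes. The labels describe neither the mutant allele nor the number of clones or cultures, so p-values reflect library-to-library spread, which may be technical.

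A BMP ligand binds a pair of type I and type II receptor kinases, and the type I receptor phosphorylates Smad1 and Smad5. These enter the nucleus with Smad4 and switch on target genes, among them Id1, Id2 and Id3, whose proteins bind E proteins and keep them from DNA. Smad6 and Smad7 are targets too, and their products damp the signal at the receptor and at the Smads. In ES cells grown with LIF, BMP from serum and its Id targets are known for holding back neural differentiation.

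Id1 rose and Smad6 fell in KO, while the receptor, ligand and receptor-activated Smad genes did not pass the test. Id1 rose 1.88-fold, with a log2 fold change of 0.91 ± 0.14 (SE, 2 libraries per genotype, edgeR adjusted p = 0.00677). Smad6 changed to 0.572 of its WT level, a log2 fold change of -0.81 ± 0.15 (SE, edgeR adjusted p = 0.0138). Of the 9 genes, 1 was called higher, 1 was called lower and 7 did not pass. Among all 16789 tested genes the same test called 8.07%, of which 4.05% were higher and 4.02% lower, as shares of all genes tested. These values are relative to the bulk of mouse transcripts, as counts scaled to a common library size (CPM) with the edgeR normalization factors named TMM, a trimmed mean of log ratios. With bulk cells, fewer cells that express a gene and less RNA per cell cannot be told apart.

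The promoters of Smad6, Id2 and Id3 are shown because Smad6 was the called gene with a RefSeq window used here and Id2 and Id3 are the other Id genes. Each sequence is credited to RefSeq and runs 5′ to 3′ along the strand of the gene, from 250 bases before the RefSeq start to 10 bases after it, in build GRCm38.p6. Capitals mark 3 motifs searched on both strands: the palindromic Smad box GTCTAGAC, the GC-rich Smad site GGCGCC and the E-box CAGCTG. The Smad6 window lies on the minus strand at chr9:64022050-64022309, that of Id2 on the minus strand at chr12:25096083-25096342, and that of Id3 on the plus strand at chr4:136143572-136143831.
Smad6: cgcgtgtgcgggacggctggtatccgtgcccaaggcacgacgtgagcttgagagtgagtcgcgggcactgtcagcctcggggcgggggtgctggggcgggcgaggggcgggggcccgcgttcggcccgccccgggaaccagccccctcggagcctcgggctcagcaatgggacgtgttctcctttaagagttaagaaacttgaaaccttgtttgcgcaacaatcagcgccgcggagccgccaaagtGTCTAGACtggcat
Id2: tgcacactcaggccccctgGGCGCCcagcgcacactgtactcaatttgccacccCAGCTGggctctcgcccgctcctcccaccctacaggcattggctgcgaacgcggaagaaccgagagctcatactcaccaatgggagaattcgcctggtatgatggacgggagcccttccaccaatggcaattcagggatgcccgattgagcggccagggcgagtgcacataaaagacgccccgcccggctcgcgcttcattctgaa
Id3: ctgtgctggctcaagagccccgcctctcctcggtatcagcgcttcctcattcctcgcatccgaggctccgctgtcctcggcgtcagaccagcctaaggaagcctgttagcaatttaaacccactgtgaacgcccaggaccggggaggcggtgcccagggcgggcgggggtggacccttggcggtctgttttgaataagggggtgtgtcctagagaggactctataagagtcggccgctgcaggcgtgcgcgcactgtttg

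The Smad6 window held the palindromic Smad box, which begins 4 bases before the start and runs across it. That motif was in 0.213% of the 32851 windows of the RefSeq table, each 300 bases long, and in 0.255% of the 15283 windows of tested genes. The Id2 window held the GC-rich site 231 bases before the start and the E-box 196 bases before it. The GC-rich site was also in windows of Bmpr1a and Smad5, and it was in 11.9% of all windows and 19.9% of those of tested genes. The E-box was in 16.3% and 15.9%. No window of Id3, Smad1 or Bmp4 held any of the 3. In all, 9 windows of 7 of the genes were searched, and windows of 1 gene can overlap: the Smad5 match is 1 site that lies in 2 of them. Matches of different motifs did not overlap. A match is a run of letters and not a measured binding site.

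Among the target genes, Id1 lies on chromosome 2 from 152736251 to 152737410, on the plus strand (mm10). Its level was 52.9 and 39.5 CPM in WT replicates 1 and 2, and 92.1 and 81.5 CPM in KO replicates 1 and 2. Both KO libraries stood above both WT libraries. The WT pair averaged 46.2 ± 9.47 CPM and the KO pair 86.8 ± 7.45 CPM (SD, n = 2 each). Raw counts behind these values were 722 and 756 in WT, and 1241 and 1453 in KO, so the count was higher in KO before any scaling. Id1 was called by edgeR, by limma voom and by DESeq2, which called 3.76% of its genes higher and 3.57% lower. It was also called in each of the 4 edgeR fits that leave out a library, where its log2 fold change ranged from 0.71 to 1.13.

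Id2 codes for a second inhibitor of E proteins and lies on chromosome 12 from 25093799 to 25097140, on the minus strand. Its level was 46.5 and 28.5 CPM in the WT libraries and 58.0 and 44.7 CPM in the KO libraries. The genotypes overlapped, since WT replicate 1 stood above KO replicate 2. The log2 fold change was 0.46 ± 0.21 (SE, edgeR adjusted p = 0.239), and the gap between the WT libraries was larger than that between the genotype means. Without WT replicate 1 it was 0.84 (edgeR adjusted p = 0.000115), without KO replicate 2 it was 0.64 (0.000576), and without WT replicate 2 it was 0.14 (0.830).

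Id3, on chromosome 4 from 136143497 to 136145755 on the plus strand, stood at 63.6 and 56.2 CPM in WT, against 54.9 and 55.5 CPM in KO. The KO libraries lay just under the lower WT library, and the log2 fold change of -0.11 ± 0.10 (SE) did not pass (edgeR adjusted p = 0.548). Id3 was not called in any of the 11 fits without the spike-in, which comprise edgeR, DESeq2, limma voom, other filters and factors, the pair term described further on and each library left out. The 3 Id genes therefore gave 1 called increase and no called decrease.

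**Figure D1:**
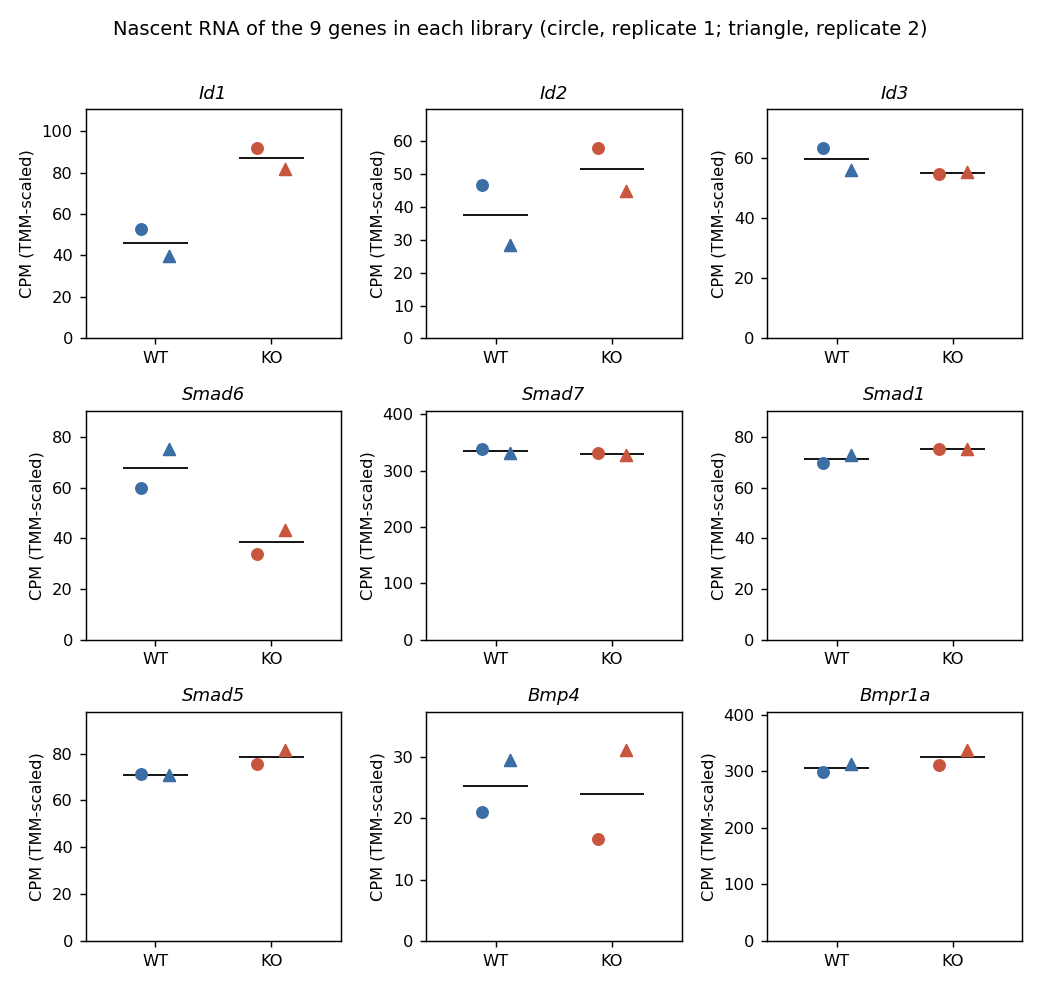
Level of each of the 9 genes in CPM (TMM-scaled, vertical axis from 0) in the WT and KO libraries; circles are replicate 1, triangles are replicate 2 and the line is the mean of the pair. The KO libraries of Id1 (81.5 and 92.1 CPM) lie above and those of Smad6 (33.8 and 43.5 CPM) lie below both WT libraries, whereas the libraries of Smad7, Smad1 and Bmpr1a lie close together.

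Of the inhibitory Smad genes, Smad6 lies on chromosome 9 from 63953076 to 64022059, on the minus strand, and its start in the table is the RefSeq start of the promoter shown above. Smad6 stood at 59.9 and 75.4 CPM in WT, against 33.8 and 43.5 CPM in KO. Both KO libraries were below both WT libraries. The WT pair averaged 67.7 ± 11.0 CPM and the KO pair 38.7 ± 6.83 CPM (SD, n = 2 each). Raw counts were 817 and 1443 in WT against 456 and 775 in KO. Like Id1, Smad6 was called in all 11 of these fits, and its log2 fold change ranged from -1.004 to -0.63 over the 4 fits with a library left out (highest edgeR adjusted p = 0.0123).

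Smad7, on chromosome 18 from 75367529 to 75395935, stood at 339 and 332 CPM in WT, against 331 and 328 CPM in KO. Its log2 fold change was -0.03 ± 0.10 (SE, edgeR adjusted p = 0.913). Smad7 therefore differed by about as much between the WT libraries as between the genotype means.

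The receptor-activated Smad genes gave nearly the same level in every library. Smad1, on chromosome 8 from 79338395 to 79399518, stood at 69.8 and 72.9 CPM in WT, against 75.4 and 75.1 CPM in KO. Its log2 fold change was 0.08 ± 0.09 (SE, edgeR adjusted p = 0.667). Smad5, which codes for a partner that can stand in for Smad1, lies on chromosome 13 from 56703010 to 56742377. It stood at 71.1 and 70.8 CPM in WT, against 75.7 and 81.5 CPM in KO. A log2 fold change of Smad5 was 0.15 ± 0.09 (SE, edgeR adjusted p = 0.378). For both genes the KO libraries lay above the WT libraries, but so little that neither passed.

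Bmp4, the ligand gene, was the least evenly measured of the 9. It lies on chromosome 14 from 46383520 to 46390669, on the minus strand. Bmp4 stood at 21.0 and 29.5 CPM in WT, against 16.7 and 31.1 CPM in KO, so that the KO libraries held both the lowest and the highest value. Its log2 fold change of -0.07 ± 0.26 (SE, edgeR adjusted p = 0.905) was 0.20 without WT replicate 2, 0.29 without KO replicate 1 and -0.61 without KO replicate 2, where it passed (edgeR adjusted p = 0.00936). No direction can be read for Bmp4. Raw counts were 287 and 564 in WT and 225 and 555 in KO.

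Bmpr1a codes for the type I receptor BMPR1A (ALK3) and lies on chromosome 14 from 34410734 to 34503341, on the minus strand. It stood at 299 and 314 CPM in WT, against 312 and 338 CPM in KO. The genotypes overlapped, and the log2 fold change of 0.08 ± 0.10 (SE) did not pass (edgeR adjusted p = 0.682).

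In all, the KO libraries lay above both WT libraries for Id1, Smad1 and Smad5 and below both for Smad6, Smad7 and Id3. That is 6 of the 9 genes without overlap, beside 52.7% of all tested genes, 26.7% above and 26.0% below. This share is near the background and is not a result about these genes. The median log2 fold change over the 9 genes was 0.08, against 0.01 over all tested genes.

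Ratios of raw counts within a library need no scaling between libraries. The 8 ratios computed were chosen after the counts had been seen, so they are a description with no test. Id1 had 0.832 and 0.704 counts per Id3 count in WT, against 1.68 and 1.47 in KO. The log2 of this ratio averaged -0.39 ± 0.17 for the WT pair and 0.65 ± 0.14 for the KO pair (SD, n = 2 each), a difference of 1.04. Smad6 had 0.177 and 0.227 counts per Smad7 count in WT, and 0.102 and 0.133 in KO, a log2 difference of -0.78. Relative to Smad1, the Smad6 ratio was 0.858 and 1.04 in WT and 0.449 and 0.579 in KO. Id2 per Id3 was also higher in both KO libraries, at 0.732 and 0.507 in WT and 1.06 and 0.805 in KO, although neither gene was called alone. Most of the ratios hold Id1 or Smad6, the genes already called, and so give no separate support for those calls. Smad1 had 0.981 and 1.03 counts per Smad5 count in WT and 0.996 and 0.922 in KO, and these values overlapped.

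**Figure D2:**
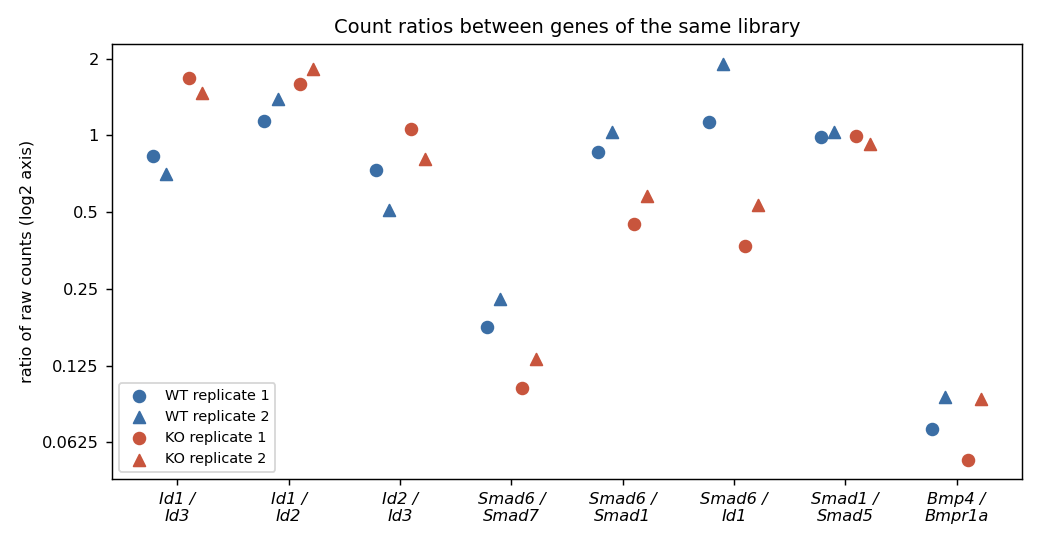
Ratios of raw counts between pairs of genes within each library (vertical log2 axis), with WT in blue, KO in red, circles for replicate 1 and triangles for replicate 2. Of the 8 ratios, Id1 per Id3 is under 1 in both WT libraries and over 1 in both KO libraries, Smad6 per Smad7 and Smad6 per Smad1 are lower in KO, and Smad1 per Smad5 stays near 1 in all 4.

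Scaling by the S. pombe spike-in put every value on a scale of transcript per added yeast RNA, and there 0 of the 9 genes passed in either direction. The spike-in fit called 0.101% of all tested genes, 0.00596% higher and 0.0953% lower, and 0 of the 9 had an unadjusted p under 0.05. DESeq2 with S. pombe size factors also called 0. The spike-in moved the median of all genes by -0.24 on the log2 scale relative to TMM, and the libraries within each genotype lay further apart. Mouse counts per S. pombe count were 3.25 and 5.60 in the WT libraries and 2.71 and 4.86 in the KO libraries. With this spread, a gene that did not pass is not shown to be unchanged. Id1 stood at 174 and 218 in WT and at 256 and 384 in KO, in counts per M (1000000) S. pombe counts, which do not overlap. In Id2, too, both KO values (161 and 211) lay above both WT values (153 and 157), as in 4.10% of all genes tested. For Id1 the log2 fold change with the spike-in was 0.70 ± 0.72 (SE). Smad6 stood at 197 and 416 in WT and at 93.9 and 205 in KO on this scale, and the genotypes overlapped. The spike-in log2 fold change of Smad6 was -1.04 ± 0.71 (SE). Smad1, Smad5 and Bmpr1a changed sign with the scaling, to -0.17, -0.07 and -0.14, so they have no direction that holds in both.

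**Figure D3:**
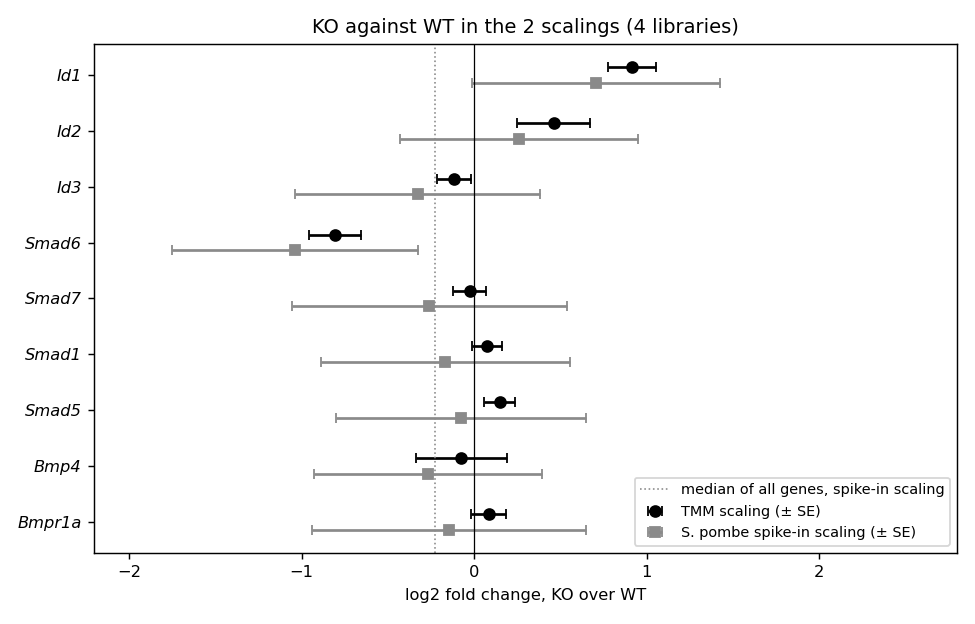
Log2 fold change of KO over WT (horizontal axis) for each of the 9 genes with its SE, from the TMM-scaled fit (black circles) and the spike-in-scaled fit (grey squares); the dotted line is the median of all tested genes in the spike-in fit. Id1 and Smad6 are the genes farthest from 0 in both scalings, and the spike-in errors are several times wider.

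The libraries fall into a pair with fewer counted reads, the replicates numbered 1, and a pair with more, the replicates numbered 2. These pairs were defined from the data. Mouse counts were 13.1 M to 13.5 M in the first pair and 18.4 M to 19.4 M in the second. Within the pairs the TMM-scaled difference of KO over WT was 0.79 and 1.04 for Id1 and -0.81 and -0.79 for Smad6 on the log2 scale. With the spike-in it was 0.55 and 0.81 for Id1 and -1.07 and -1.02 for Smad6. Both genes moved in the same direction in either pair and in either scaling. For Id1 in both scalings, and for Smad6 with TMM, the genotypes do not overlap. Any pairing of those libraries must then give the same direction, so this adds no support. For Id2 the differences within pairs were 0.31 and 0.64 with TMM and 0.07 and 0.42 with the spike-in. Bmp4 gave -0.33 in the pair with fewer reads and 0.08 in the other (TMM).

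A term for these pairs, which leaves 1 residual degree of freedom, raised the share of all genes called to 25.7% with TMM scaling. With it, Id2 was called as well (log2 fold change 0.48, edgeR adjusted p = 1.47e-06). In the spike-in fit with the pair term 40.7% of all genes were called, 35.8% lower and 4.86% higher. There Id1 was called higher, and Smad6 (-1.04), Id3 (-0.35), Bmp4 (-0.33) and Smad7 (-0.26) were called lower.

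In the authors' deposited table none of the 9 genes had an adjusted p under 0.05, and 0.0271% of the 29514 genes given an adjusted p there did. That table is scaled by size factors of the S. pombe counts and gives a shrunken log2 fold change. The authors' deposited table gives 0.53 for Id1 (unadjusted p = 0.142) and -0.71 for Smad6 (unadjusted p = 0.0665), the 2 smallest p-values of the 9.

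Levels can be compared between genes only per length, and the sources used here do not name the counted feature. Per kilobase of merged exons (GENCODE M21), Smad7 had the highest WT level with 74.2 ± 1.05 CPM per kilobase, followed by Bmpr1a (48.3 ± 1.65), Id1 (39.8 ± 8.16) and Id3 (33.4 ± 2.95; SD, n = 2 each). Id1 and Id3 did not differ beyond their spread in WT on this scale. In KO, Id1 reached 74.8 ± 6.42 CPM per kilobase of exon, level with Smad7 (72.9 ± 0.606) within their spread. Smad6 went from 21.1 ± 3.43 to 12.1 ± 2.13 on this scale, next to Smad1 at 12.0 ± 0.0269 in KO. Per kilobase of the whole gene span the order differs, with Id1 highest in WT (39.8) and Smad6 lowest (0.981), since Smad6 spans 68984 bases and Id1 spans 1160. In KO on the span scale Id1 stood at 74.8 ± 6.42 against 11.6 ± 0.0965 for Smad7 (SD, n = 2 each). Smad6 stood at 0.560 ± 0.0990 against 1.23 ± 0.00275 for Smad1. The likeness of these pairs in KO therefore holds per exon length only.

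No gene annotated on the strand of a member overlapped it with a count above 0. On the opposite strand, Gm15222 and Gm15217 at Bmp4 had at most 14 and 2 counts in a library, and Gm17110 at Bmpr1a had 1. The sources used here do not say whether counting used strand, so these few reads cannot be assigned with certainty.

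The other genes of the pathway, 63 in all by a list set apart from the 9, gave 51 tested genes, of which 4 were higher and 1 was lower in KO and 46 did not pass. The 5 called are 9.8% of the list, near the 8.07% of all tested genes, and are not a result about the list. The median log2 fold change was 0.19, against 0.01 over all genes tested, and 40 of the 51 were positive, against 51.1% of all tested genes. Of the 51, Cdx2 and Nog passed the filter on low counts through the KO libraries alone. The other 49 held 3 called higher and 1 lower, with 38 positive and a median of 0.19. With the spike-in the median of the 51 was -0.04, against -0.23 over all tested genes, and 0 were called. DESeq2 called 1 higher and 1 lower, and the pair term called 15 higher and 2 lower, beside 13.2% and 12.5% of all genes with that term.

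Among 11 ligand genes, 5 were tested and Bmp6, which codes for a BMP ligand, was higher. Bmp6 stood at 13.9 and 12.8 CPM in WT, against 18.2 and 21.3 CPM in KO, a log2 fold change of 0.57 ± 0.14 (SE, edgeR adjusted p = 0.0438). It was not called without WT replicate 2 (edgeR adjusted p = 0.203), without KO replicate 2 (0.0762) or in DESeq2 (0.0791). Gdf2 had 0 counts in every library.

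Of 10 receptor and co-receptor genes, 9 were tested and Acvr2b, which codes for an activin type II receptor that BMPs also bind, was lower. Acvr2b stood at 47.9 and 43.4 CPM in WT, against 33.1 and 30.9 CPM in KO (log2 fold change -0.51 ± 0.11 (SE), edgeR adjusted p = 0.0217). Without WT replicate 1 it missed the threshold (edgeR adjusted p = 0.0765). None of the other 8, Bmpr2 and Acvr1 among them, passed.

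Of 14 genes for extracellular antagonists and modulators, 11 were tested and 2 were higher. Bmper, whose product binds BMPs outside the cell, stood at 18.8 and 31.1 CPM in WT, against 40.9 and 81.2 CPM in KO. Its log2 fold change of 1.29 ± 0.31 (SE, edgeR adjusted p = 0.0371) was 0.70 without KO replicate 2, 0.98 without WT replicate 1, 1.71 without WT replicate 2 and 1.68 without KO replicate 1, and DESeq2 did not call it (adjusted p = 0.234). Bmp1 codes for a protease that cleaves the antagonist chordin, not for a BMP ligand. Bmp1 rose from 11.2 and 9.88 CPM to 19.1 and 23.5 CPM (log2 fold change 1.02 ± 0.16 (SE), edgeR adjusted p = 0.00709). Bmp1 lies on chromosome 14 from 70474558 to 70520234. Of the 30 tested genes within 1 Mb of it 13 were higher and 0 lower, with a median of 0.59, beside 4.05% and 4.02% of all tested genes. The part of this neighbourhood in the Bmp1 value was not tested.

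None of the 13 other Smad genes and intracellular regulators was called by edgeR or DESeq2. The pair term called 4 higher and 0 lower, beside 13.2% and 12.5% of all tested genes with that term. The most abundant were Skil, a repressor of Smad complexes, at 367 and 307 CPM in WT, against 503 and 376 CPM in KO, and Ppm1a, a phosphatase gene, at 223 and 229 CPM in WT, against 230 and 262 CPM in KO. Of 12 other target genes, 10 were tested, and the gene called was Cdx2, which had passed the filter on low counts only through the KO libraries where it was high. Its inclusion and its call are therefore not independent, and the list gives no other call. Cdx2, also a trophoblast regulator, had 4 counts in each WT library and 20 and 16 in the KO libraries (log2 fold change 2.21 ± 0.52 (SE), edgeR adjusted p = 0.0357). It was not called without WT replicate 2 (edgeR adjusted p = 0.225) or without KO replicate 1 (0.136). DESeq2 gave Cdx2 no adjusted p and called 0 of the list.

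The 3 genes for E proteins, which the Id proteins bind, were tested and 0 passed in edgeR or DESeq2. The pair term called 1 lower, beside 12.5% of all tested genes with that term. Tcf12 stood at 316 and 375 CPM in WT, against 319 and 424 CPM in KO. Tcf4 stood at 349 and 378 CPM in WT, against 250 and 320 CPM in KO.

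**Figure D4:**
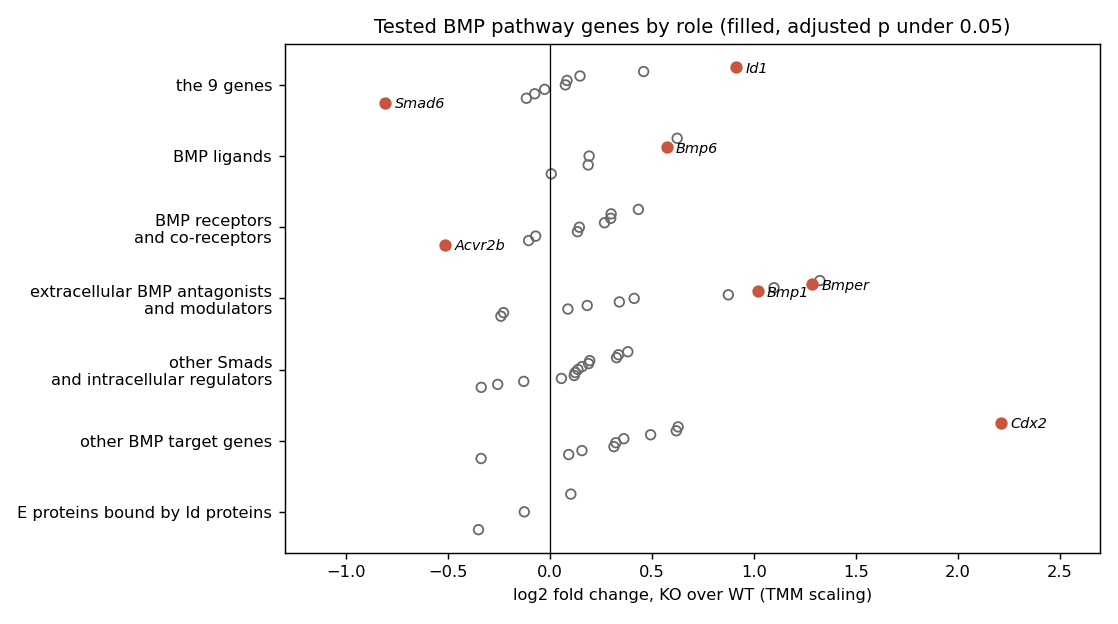
Log2 fold change of KO over WT (TMM scaling, horizontal axis) of each tested gene of the pathway, in rows by role; filled points passed the edgeR test at an adjusted p under 0.05 and are named. Id1, Bmp6, Bmp1, Bmper and Cdx2 were higher, Smad6 and Acvr2b were lower, and the other points did not pass.

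Chromosomal neighbours of Id1 and Smad6 did not shift as a group. Of 35 tested genes within 1 Mb of Id1, 3 were higher and 1 was lower, with a median log2 fold change of -0.01. Of 23 within 1 Mb of Smad6, 0 were called and the median was 0.03. Among all tested genes 8.07% were called.

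The genes whose profile over the 4 libraries was most like that of each target were taken from 11882 protein-coding genes by the root mean square difference of centred log2 CPM. For Id1 they were Clca3b (0.00723), the growth factor receptor gene Egfr (0.0254) and Amot (0.0370), which codes for angiomotin. Egfr stood at 54.2 and 42.1 CPM in WT, against 94.5 and 86.2 CPM in KO, close to Id1 in every library. For Smad6 they were the connexin gene Gjc1 (0.0197), Kctd15 (0.0296) and Parp14 (0.0331). Gjc1 stood at 81.6 and 102.8 CPM in WT, against 47.8 and 59.9 CPM in KO. For Id2 they were Gulo, Ier3 and Capsl (0.0382 to 0.0512), and for Id3 Myo5c, Alg1 and Mrpl49 (0.00703 to 0.0124). The profile has 4 points, so the likeness is a description and carries no test.

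Supt3, which codes for a subunit of the SAGA coactivator, gave nascent RNA in both libraries labelled KO, at 123 and 140 CPM against 148 and 159 CPM in WT. Since the labels do not describe the allele, these totals are no check of the genotype. The labelled cell type was checked on Pou5f1, Nanog, Sall4, Zfp42 and Esrrb, all present, while Sox2 was listed at 0 in every library. Sox2 lies inside Sox2ot on the same strand in GENCODE M21, and Sox2ot held 3187 to 6210 counts. The summed level of the 6 ES cell markers was 1732 and 1793 CPM in WT and 1092 and 1412 CPM in KO. Of the 5 tested, 4 had a negative log2 fold change and 1 a positive one. Nanog was called lower (-0.53, edgeR adjusted p = 0.0362). Zfp42 (-0.62, edgeR adjusted p = 0.0639) and Esrrb (-0.79, 0.0682) fell further but did not pass. DESeq2 called 2 of these markers lower, beside 3.57% of its genes. The pair term called 4 lower, beside 12.5% of all tested genes with that term.

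Some markers of other cell types moved with the genotype beside Id1 and Smad6. Their lists were chosen with earlier results of these data known. Of 12 primitive endoderm markers 10 were higher and 0 lower with TMM scaling, beside 4.05% and 4.02% of all tested genes. With the spike-in 0 of these 12 were called, and their median log2 fold change was 0.92. Their summed level was 739 and 834 CPM in WT and 1421 and 1853 CPM in KO, with no marker at 0. Of 8 trophoblast markers 7 were tested, and 4 (Krt7, Krt8, Krt18 and Cdx2) were higher and 0 lower by edgeR. Cdx2 passed the filter on low counts only through the KO libraries, so its inclusion and its call are not independent. Among these markers DESeq2 called 2 higher, beside 3.76% of its genes. The pair term called 4 higher and 1 lower, beside 13.2% and 12.5% of all tested genes. With the spike-in 0 trophoblast markers were called. The most abundant of them, Tfap2c, stood at 48.0 and 44.6 CPM in WT, against 28.3 and 39.9 CPM in KO (log2 fold change -0.43, edgeR adjusted p = 0.128), and Eomes had a log2 fold change of 0.15 (0.793). The list had sums of 73.2 and 65.3 CPM in WT and 93.8 and 112 CPM in KO. The 7 feeder fibroblast markers summed to 3.41 to 4.76 CPM and the 6 mesoderm markers to 4.76 to 5.64 CPM. Of these lists 3 and 2 genes were tested, and 0 were called by edgeR or DESeq2. The part of these cell types in the Id1 and Smad6 values was not tested.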

How the data were processed

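The TT-seq data comprise 4 libraries of mouse ES cells, 2 of genotype Supt3 WT and 2 of genotype Supt3 KO. The authors deposited raw counts for 54146 mouse genes and, for the spike-in, 7259 S. pombe genes. The deposited comparison table also holds normalized signal values, a log2 fold change and p-values that the authors made with size factors per library. The submitters' processing notes list the aligner STAR 2.5.3, the counter HTSeq 0.6.1p1, cutadapt 1.10, DESeq2 1.16.1 and bcl2fastq 2.20.0.422, with build mm10. The strand setting, counted feature and annotation are not stated in the sources used here.

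The edgeR function filterByExpr (minimum count 10) kept 16789 genes. Tests were edgeR 4.0.16 quasi-likelihood tests (R 4.3.3) over all of them, genotype only, with library sizes scaled either by TMM factors or by the TMM-adjusted S. pombe total, and Benjamini-Hochberg adjusted p under 0.05. The SE was obtained from the log2 fold change and the square root of F, as their quotient. Alternatives were DESeq2 1.42.0, limma 3.58.1 voom, other filters and scalings, a pair term and each library left out. Differences within pairs used a pseudocount of 0.5. Of these fits, only the TMM-scaled edgeR fit, with and without the pair term, was run on simulated data. Those data had a common spread for all genes and no pair effect.

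Total counts, S. pombe included, were 17.7 M to 22.9 M (M, 1000000 counts) per library. The libraries of a genotype differed by a chi-square of 6.05 (WT) and 10.6 (KO) per degree of freedom, so none was a duplicate. Replicates are numbered in accession order, which pairs nothing.

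The 9 genes, the other lists and the alternatives were chosen with earlier results of these data known. Named were the 9 genes, Supt3, called genes of each other pathway list (up to 5) or otherwise its 2 most abundant, and the 3 genes of most similar profile for each Id gene and called member. Promoter windows are from RefSeq (GRCm38.p6), and 7 of the 9 genes had one used here.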

Additional observations from a re-analysis of the deposited data

How the results depend on the processing

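With TMM scaling, 124 of 138 values of single genes under an alternative kept their direction and their side of the threshold. The members called higher numbered 2 in place of 1 with no filter on low counts and with the batch term for pairs. Id2 was the gene added. Members called lower numbered 1 in each fit that kept all 4 libraries. Other pathway genes called higher numbered 1 in DESeq2, 11 with no filter and 15 with the batch term, and 2 to 8 without one library, against 4. Those called lower numbered 2 with no filter and with the batch term, against 1. Over all tested genes the share called either way was 7.34% in DESeq2, 8.34% with no filter and 25.7% with the batch term, against 8.07%. Both that share and the counts of members and of other pathway genes also changed with the library left out. Where the share moved too, a changed count is not by itself a result about these genes. With spike-in scaling the batch term called 1 member higher and 4 lower, against 0 and 0. There it called 40.7% of all tested genes, against 0.101%. Bmp4 ranged from -0.61 to 0.29 without one library (TMM). With the spike-in the log2 fold change without one library ranged from -1.32 to 0.47 for Bmp4, from -0.77 to 0.011 for Id3, from -0.68 to 0.14 for Smad7, from -0.59 to 0.29 for Smad1, from -0.57 to 0.34 for Smad5 and from -0.65 to 0.31 for Bmpr1a, so these changed sign, while Id1 (0.38 to 0.97) and Smad6 (-1.71 to -0.41) did not. The cause was not tested. Where 1 library of a genotype was left out, the lone one was assumed to vary as much as the pair of the other genotype. The labels carry no replicate numbers, so no pairing comes from them, and the batch term rests on pairs by read depth. Depth was 225 to 6349 counts per gene and library for the 9 genes, lowest for Bmp4.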
